A study of Mus musculus with 2 samples.

Results

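The noradrenergic and visceral neuron genes described here are 7 genes, Th, Dbh, Slc6a2, Phox2a, Hand2, Tfap2a and Tfap2b, taken by symbol from a fixed list among the 43346 Ensembl genes of the deposited tables. RNA was sequenced from the hindbrain of B6NCrl mouse embryos, male and female together, at embryonic day 12.5 (e12.5). There were 2 libraries of 1 group, replicate 1 from a pool of 120 embryos and replicate 2 from a pool of 88 embryos, with no treatment, genotype or time to compare. Pooling averages over embryos, so differences between single embryos cannot be seen, and any p-value compares 2 libraries only.

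Noradrenaline is made from tyrosine in a chain of enzyme reactions, packed into vesicles, released and taken back up. In the embryonic hindbrain the noradrenergic cells lie in the locus coeruleus and in smaller groups of the medulla, and homeodomain factors of the Phox2 family are needed for them and for many visceral motor and visceral sensory neurons. Hand2 acts in the same programme in sympathetic neurons, outside the brain, while the AP-2 factors Tfap2a and Tfap2b are also used by neural crest, surface ectoderm and precursors of cerebellar inhibitory neurons.

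Levels are given in TPM, a transcript abundance divided by transcript length and scaled to the same total in each library, so that genes can be compared. A 95% interval beside a level is the exact Poisson interval of the gene's count, scaled to TPM, and covers counting error only. The libraries held 31633169 and 29766460 expected counts, of which 3.41% and 4.36% were external ERCC spike-in RNAs. The spike-ins took 8.39% and 10.9% of the TPM. Of 6 markers of hindbrain neural tissue, 5 reached 1 TPM in both libraries, led by the neuronal tubulin gene Tubb3, and the exception was En2 at 0.54 and 0.70 TPM. Skeletal muscle markers summed to 52.1 TPM in the first library and 246 TPM in the second, and the part of muscle RNA in any result here was not tested.

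Of the 7 genes, 6 reached 1 TPM in both libraries, against 35.5% of all Ensembl genes. That share includes non-coding genes, while the 7 genes are all protein-coding, so it is not a like background. Slc6a2, the lowest of the 6, lay above only 38.6% of the 21474 protein-coding genes by mean level. Tfap2b was the highest at 71.3 ± 3.66 TPM (SD, n = 2), and Tfap2a and Th followed at 14.0 ± 0.212 and 12.2 ± 0.0707 TPM. Phox2a (3.12 ± 0.410), Dbh (1.62 ± 0.311) and Slc6a2 (1.54 ± 0.106 TPM) were low, and Hand2 was at the limit of detection. In bulk tissue, fewer cells of a type and less RNA per cell cannot be told apart. The median of the 7 genes was 2.83 and 3.41 TPM in the 2 libraries.

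**Figure D1:**
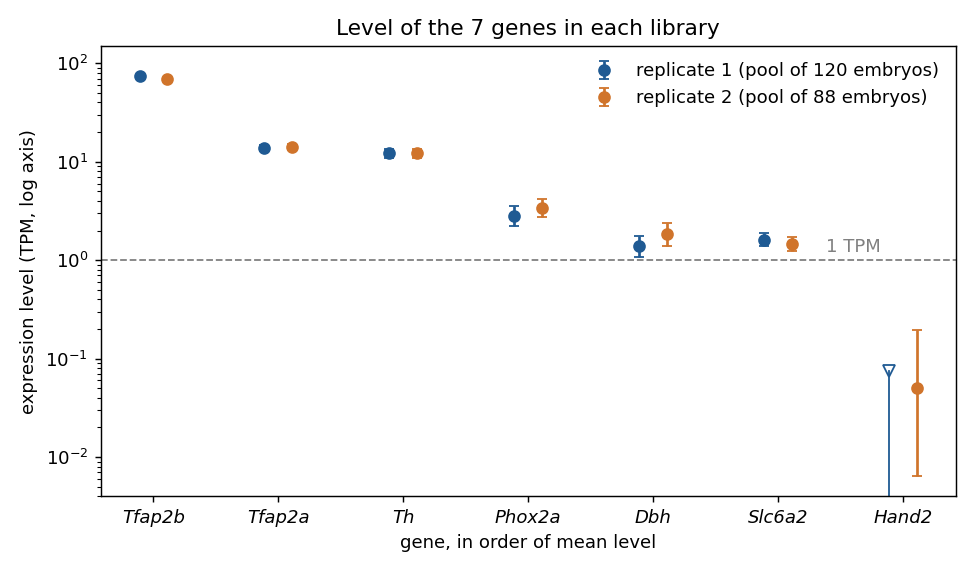
Level of each of the 7 genes in TPM (log axis) in replicate 1 and replicate 2, with bars for the 95% Poisson interval of the count; the open triangle for Hand2 in replicate 1 marks the limit of 3 counts, 0.0740 TPM, at a count of 0, and the dashed line is 1 TPM. Tfap2b lies above the other genes in both libraries, the intervals of Tfap2a and Th overlap, as do those of Dbh and Slc6a2, and Hand2 lies below 0.2 TPM.

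Th (ENSMUSG00000000214.6, mm10 chr7:142892752-142931128, minus strand) encodes tyrosine hydroxylase, the rate-limiting enzyme that turns tyrosine into L-DOPA. It held 398 counts in replicate 1 and 370 in replicate 2, or 12.1 TPM (95% interval 11.0 to 13.4) and 12.2 TPM (11.0 to 13.5). Both libraries gave nearly the same level, and 58.9% of the 21474 protein-coding genes had a lower mean. All of its level was assigned to 1 coding transcript, and the rest of its 6 annotated transcripts were listed at 0.

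The bases just upstream of the annotated first exon of Th are shown because they hold TGACGTCA, the full palindrome of a cAMP response element, given in capitals. The stretch is on the minus strand at mm10 chr7:142900015-142900245, from RefSeq, and reads 5′ to 3′.
Th upstream: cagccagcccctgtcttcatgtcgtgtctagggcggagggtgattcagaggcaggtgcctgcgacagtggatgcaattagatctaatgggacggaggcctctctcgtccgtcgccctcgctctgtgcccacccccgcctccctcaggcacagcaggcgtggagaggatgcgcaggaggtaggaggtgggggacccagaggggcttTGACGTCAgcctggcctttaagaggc
The match begins 45 bases before the RefSeq start, and 1.79% of 32851 RefSeq promoters of 300 bases hold this motif on either strand. The motif was added to the search after the sequence was seen, and a match of letters does not show a bound site.

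Dbh (ENSMUSG00000000889.8, mm10 chr2:27165233-27183200, plus strand) encodes dopamine beta-hydroxylase, which makes noradrenaline from dopamine inside the vesicle. It held 65 and 57 counts, which gave 1.40 TPM (95% interval 1.08 to 1.78) and 1.84 TPM (1.40 to 2.39). The counts were close and the order of the 2 libraries differs between counts and TPM. The higher TPM of replicate 2 came from transcript Dbh-202, a non-coding processed transcript of 205 nt, which took 29.2% of the gene's TPM in replicate 2 and 0% in replicate 1. That share rested on 1 fragment, worth 0.539 TPM on the short transcript against 0.0233 TPM on the coding Dbh-201. Counting Dbh-201 alone, Dbh had 1.40 and 1.30 TPM in the 2 libraries, a mean of 1.35 ± 0.0707 TPM (SD, n = 2), which was computed after the transcript table was seen.

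Slc6a2 (ENSMUSG00000055368.9, mm10 chr8:92960079-93001667, plus strand) encodes the noradrenaline transporter, which returns released noradrenaline to the cell. It held 183 and 153 counts, which gave 1.61 TPM (95% interval 1.39 to 1.87) and 1.46 TPM (1.24 to 1.72). The intervals overlapped, and all of the level was assigned to 1 of its 2 annotated transcripts. More counts than for Dbh gave about the same TPM, since TPM divides by transcript length.

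Phox2a (ENSMUSG00000007946.10, mm10 chr7:101818313-101822726, plus strand) encodes a homeodomain factor required for the locus coeruleus. It held 81 and 90 counts, which gave 2.83 TPM (95% interval 2.25 to 3.51) and 3.41 TPM (2.74 to 4.19). Replicate 2 was the higher, within overlapping intervals. Its last 95 bases overlap Inppl1, a phosphoinositide phosphatase gene on the other strand at 17.3 and 16.3 TPM. No label or header used here states a stranded library, so fragments in that overlap could belong to either gene.

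Hand2 (ENSMUSG00000038193.3, mm10 chr8:57320983-57324633, plus strand) encodes a basic helix-loop-helix factor of sympathetic neurons, heart and limb. It held 0 counts in replicate 1, which allows a level of up to 0.0740 TPM at the limit of 3 counts, and 2 counts in replicate 2, or 0.05 TPM. Both libraries were at or under that limit, so no fold against another gene is given. Hand2os1, a non-coding gene on the other strand that overlaps 3251 bases of Hand2, held 5 and 2 counts. Its relative Hand1 was also near the limit, with 9 and 6 counts (0.26 and 0.20 TPM). The E-protein genes Tcf12 (159 ± 7.86 TPM), Tcf4 (146 ± 8.53) and Tcf3 (145 ± 2.73 TPM), whose products pair with Hand factors and many other factors of the family, were abundant.

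Tfap2a (ENSMUSG00000021359.11, mm10 chr13:40715302-40738376, minus strand) encodes AP-2 alpha, a DNA-binding factor of neural crest and ectoderm. It held 780 and 736 expected counts, which gave 13.8 TPM (95% interval 12.9 to 14.8) and 14.1 TPM (13.1 to 15.2). The 2 levels differed by less than their intervals, and 60.8% of protein-coding genes had a lower mean. Gm26688, an antisense gene that lies within the Tfap2a span over 7355 bases, was listed at 4.77 and 5.81 TPM, and without known strand the division of fragments between them is uncertain.

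Tfap2b (ENSMUSG00000025927.9, mm10 chr1:19208914-19238576, plus strand) encodes AP-2 beta, which acts in sympathetic and noradrenergic neurons, neural crest and cerebellar inhibitory precursors. It held 3176 and 2830 counts, which gave 73.9 TPM (95% interval 71.4 to 76.5) and 68.8 TPM (66.2 to 71.3). The intervals were only just apart, with replicate 1 the higher (71.38 against 71.33 TPM at the near ends). The TPM total includes the spike-ins, which took 8.39% in replicate 1 and 10.9% in replicate 2, and the intervals do not allow for that. The test between the libraries, on counts without spike-ins and reported with the other genes, did not call Tfap2b. A lower mean was found for 88.7% of protein-coding genes.

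Among the transcripts quantified, both AP-2 genes had a pair of alternative first coding exons, and the genes differed in how their level was divided. Only 2 of the 9 Tfap2a transcripts in GENCODE M21 were quantified, so the Tfap2a shares divide its level between those 2 alone. In Tfap2a, Tfap2a-201 took 94.0% ± 1.05 (SD, n = 2) of the TPM and Tfap2a-202, with a start further upstream, 6.71% in replicate 1 and 5.23% in replicate 2. In Tfap2b, the upstream start, used by Tfap2b-201 and Tfap2b-204, took 33.4% and 32.5% of the TPM, and the downstream coding start of Tfap2b-202 took 35.6% and 38.7%. Among the 3 coding transcripts, Tfap2b-202 made up 51.6% and 54.4% of the TPM, so neither start dominated among these. The retained-intron transcript Tfap2b-205, annotated to begin within the first exon of Tfap2b-202, took 21.9% and 20.4% of the gene's TPM. It is counted with neither start here. By fragments the upstream start held 64.0% and 63.4% and Tfap2b-202 held 29.0% and 30.4%, because TPM divides by length. The order of the 2 starts therefore turns on whether transcripts or fragments are counted.

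The coding part of each first exon is shown with the start codon in capitals, because the 2 genes carry matching pairs of starts. Sequences are from the mm10 genome at GENCODE M21 coordinates, 5′ to 3′ on the coding strand, at chr13:40730039-40730065 (minus), chr13:40733670-40733714 (minus), chr1:19212397-19212423 (plus) and chr1:19209168-19209248 (plus) in the order printed.
Tfap2a-201: ATGttagttcacagtttttcagctatg
Tfap2a-202: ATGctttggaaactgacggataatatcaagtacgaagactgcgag
Tfap2b-202: ATGttagtccacacctattcatccatg
Tfap2b-201 and Tfap2b-204: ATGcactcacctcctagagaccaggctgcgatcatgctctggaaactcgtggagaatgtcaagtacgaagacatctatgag
The start of Tfap2a-201 and the downstream start of Tfap2b were identical at 21 of 27 bases (77.8%). The upstream starts were identical at 35 of the 45 bases aligned (77.8%), and the Tfap2b exon part is longer, at 81 bases. Within a gene the 2 starts matched at 15 of 27 aligned bases in Tfap2a and at 15 of 27 in Tfap2b. Neither these alignments nor that of the upstream starts paired the bases in order from the start codons. Their shares are therefore not measured like the first.

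The 250 bases before the first exon of Tfap2b-202 are shown because they lie inside an intron of the upstream-start transcripts, at mm10 chr1:19211804-19212053 (plus strand, RefSeq) and next to a start whose transcript made up over 50% of the coding TPM; no letters are in capitals.
Tfap2b intronic start: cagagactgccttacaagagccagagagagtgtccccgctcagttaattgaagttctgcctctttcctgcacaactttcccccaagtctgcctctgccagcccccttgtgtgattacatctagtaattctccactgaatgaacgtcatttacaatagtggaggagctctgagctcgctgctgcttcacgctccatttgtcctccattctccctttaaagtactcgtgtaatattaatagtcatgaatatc
RefSeq promoter windows of 300 bases, 250 before and 50 after a start, were matched for 6 of the 7 genes. None of these windows held TATAAA (13.6% of all promoters), CACGTG (7.15%) or GCCNNNGGC, a form of the AP-2 motif (16.6%), on either strand. TAATTA, a core of homeodomain sites, was present in the Hand2 window and in 1 of 2 Tfap2a windows (5.29% of all promoters). Both Tfap2a windows lie upstream of the first exon of Tfap2a-201, so the bases before the start given most of the Tfap2a level were not searched, nor were those before the upstream Tfap2b start. CANNTG, the E-box, which includes CACGTG, was present in the windows of Th, Dbh, Phox2a, Hand2 and Tfap2b and in 72.3% of all promoters.

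In Tfap2b, a further 31.0% and 28.8% of the TPM was assigned to the retained-intron transcripts Tfap2b-203 and Tfap2b-205, which are not annotated as coding. These held 6.92% and 6.20% of its fragments. With coding transcripts only, Tfap2b was at 51.0 and 48.9 TPM, a mean of 49.97 ± 1.48 TPM (SD, n = 2), and it stayed the highest of the 7 genes.

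**Figure D2:**
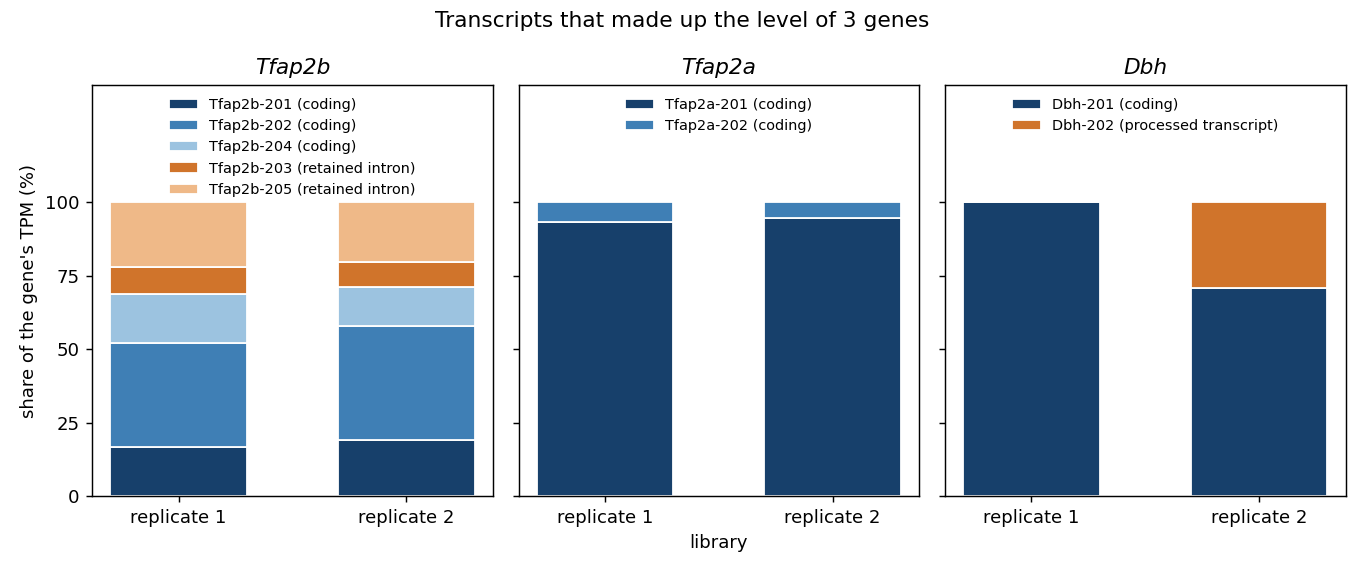
Share of each gene's TPM (%) given to each annotated transcript of Tfap2b, Tfap2a and Dbh in replicate 1 and replicate 2, as stacked bars with coding transcripts in blue and non-coding ones in orange. Tfap2b is divided over 5 transcripts in both libraries, Tfap2a is mostly Tfap2a-201, and the orange share of Dbh in replicate 2 (29.2%) rests on 1 fragment.

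In order of level, neighbours were compared by the log2 difference of TPM within each library. Tfap2b exceeded Tfap2a by 2.35 ± 0.10 (SD, n = 2), Th exceeded Phox2a by 1.97 ± 0.18, and Phox2a exceeded Dbh by 0.95 ± 0.09, each with intervals apart in both libraries. Tfap2a exceeded Th by 0.20 ± 0.01, the higher in each library, with intervals that overlapped in both. Dbh and Slc6a2 could not be ordered, at -0.20 in replicate 1 and 0.33 in replicate 2. Slc6a2 lay above Hand2 with intervals apart in both libraries. These differences between genes were not tested.

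Within the synthesis chain, Th exceeded Dbh 8.66-fold in replicate 1 and 6.65-fold in replicate 2, and 8.66-fold and 9.41-fold with coding transcripts only. It exceeded Slc6a2 7.53-fold and 8.38-fold, and Phox2a 4.29-fold and 3.59-fold. Th was therefore several times each of the other 3 noradrenergic genes in both libraries. Th is also made by dopamine neurons, which lack Dbh. The dopamine transporter gene Slc6a3 held 3 and 2 counts (0.05 and 0.03 TPM), the level of the detection limit, while 6 of 9 midbrain dopamine neuron markers reached 1 TPM in both libraries, led by Nr4a2 (20.0 ± 3.72), Lmx1a (10.8 ± 3.49) and En1 (6.61 ± 0.714 TPM), which other neural cells also express. Pitx3, of the same list, was at 0.74 and 2.80 TPM from 18 and 54 counts, higher in replicate 2 (edgeR exact test, adjusted p = 0.00617). All 6 skeletal muscle markers were also higher in replicate 2, and which cells gave the rise of Pitx3 was not tested. Lmx1a went from 13.3 to 8.32 TPM (edgeR exact test, adjusted p = 0.0469). Th was nearly level between the same libraries. The part of dopamine neurons in the level of Th was not tested.

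The other steps of the pathway were nearly all present. All 5 genes for tetrahydrobiopterin, the cofactor of Th, reached 1 TPM, led by Qdpr (86.4 ± 2.50), Pts (56.3 ± 3.24) and Spr (22.3 ± 4.50 TPM), and Gch1, the first enzyme of that route, was lowest at 2.84 ± 0.417 TPM. Ddc, which makes dopamine from L-DOPA, reached 6.81 and 10.0 TPM, so Th was 1.78-fold and 1.22-fold as high. Pnmt, which turns noradrenaline into adrenaline, was at 0.85 and 0.92 TPM from 17 counts each.

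All 6 storage genes reached 1 TPM, with the granule proteins Chgb (44.7 ± 1.66) and Chga (39.4 ± 2.69) and the vesicle cytochrome Cyb561 (21.3 ± 0.651 TPM) highest and the vesicle transporter Slc18a1 lowest at 1.09 ± 0.0778 TPM. Slc18a2, the vesicle transporter of monoamine neurons, was at 14.1 ± 0.283 TPM, and Th was 0.850-fold and 0.882-fold its level. Slc18a2 also serves serotonin neurons of the hindbrain. The breakdown enzymes Maoa (11.1 ± 0.721) and Maob (4.88 ± 1.77 TPM) were both present. Of 9 adrenergic receptor genes, 4 reached 1 TPM in both libraries, with Adra2a (3.43 ± 0.438) and Adra1a (2.94 ± 0.233 TPM) highest and Adrb1 lowest at 0.11 and 0.31 TPM.

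Of 8 other factors of noradrenergic and sympathetic development, 7 reached 1 TPM, and Hand1 did not. Nr2f6 (51.5 ± 2.29) and Gata3 (45.4 ± 8.90 TPM) were highest, both above Phox2a. Which cells expressed these genes was not tested, so their levels do not show noradrenergic cells. Of 13 visceral motor and visceral relay genes, 11 reached 1 TPM, led by Isl1 (36.4 ± 1.04), Prrxl1 (20.1 ± 5.90) and Nkx6-1 (16.0 ± 0.460 TPM), with Nkx2-9 lowest at 0.95 and 0.44 TPM. Of the other AP-2 genes, Tfap2c was at 1.55 and 1.33 TPM, Tfap2e at 0.64 and 0.75 TPM and Tfap2d at 1.03 and 0.34 TPM, all below Tfap2a. The AP-2 cofactor gene Cited2 was at 90.0 ± 7.95 TPM, and Kctd15 and Kctd1, whose products repress AP-2 activity, were at 31.3 ± 2.90 and 14.9 ± 0.460 TPM.

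Many genes listed as markers of other tissues in which these genes are used also reached 1 TPM. A listed gene can be expressed by hindbrain cells too, so its level does not show that the tissue was present. Of 9 peripheral autonomic neuron genes, 8 reached 1 TPM, led by Dlk1 (116 ± 2.40), Npy (37.3 ± 10.4) and Prph (23.2 ± 6.73 TPM), and Vip was lowest at 0.55 and 0.84 TPM. All 7 neural crest markers did, summing to 138 and 130 TPM, with Ednrb (84.7 ± 2.96) and Sox10 (12.5 ± 4.08 TPM) highest. All 9 surface ectoderm markers did, summing to 121 and 92.8 TPM, as did 7 of 10 pharyngeal arch markers, summing to 160 and 174 TPM, and all 6 placode and sensory ganglion markers, summing to 172 and 176 TPM. All 10 markers of dorsal and cerebellar inhibitory neurons, a source of AP-2 expression within the hindbrain, did, summing to 264 and 272 TPM, led by Lhx1 (54.6 ± 1.75), Lhx5 (54.3 ± 2.12) and Gad2 (43.5 ± 4.18 TPM). The part of each tissue in the levels of Tfap2a and Tfap2b was not tested. Heart markers summed to 7.57 and 17.8 TPM, with Tnnt2, also a gene of embryonic skeletal muscle, at 4.15 and 14.9 TPM. Nkx2-5 held 1 and 1 counts and Gata4 1 and 3. The other heart markers were higher, with Nppa at 1.54 and 1.32 TPM, Myl7 at 1.40 and 0.93 TPM and Myh6 at 0.42 and 0.32 TPM.

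Between the 2 pools, none of the 6 genes with 10 or more counts was called. The test was a two-sided exact binomial test on each gene's counts, blind to any spread beyond counting, with p-values adjusted by Benjamini-Hochberg across 19209 genes, and at 0.05 it called 20.4% of them. None of the 6 had an unadjusted p under 0.05, where 5892 of all genes did. The edgeR exact test used a common dispersion, a biological coefficient of variation of 9.02% that was estimated from these same 2 libraries. It called 1.57% of all genes and 0 of the 6. By this test none of the 6 was under an unadjusted 0.05, where 1285 of the 19209 genes were. Hand2 was not tested. A count of 0 among so few genes does not show that the pools were equal in them.

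Phox2a had the largest log2 ratio of replicate 2 to replicate 1, at 0.25 (exact binomial adjusted p = 0.482), followed by Slc6a2 at -0.16 (exact binomial adjusted p = 0.562). Dbh was at -0.09, Tfap2b at -0.07, Tfap2a at 0.02 and Th near 0. Among 1703 genes of 1 to 2 TPM, 84.8% had a larger absolute log2 ratio than Dbh and 72.3% a larger one than Slc6a2. Among 2549 genes of 10 to 20 TPM, 97.8% had a larger one than Th and 90.1% a larger one than Tfap2a. The share was 44.2% for Phox2a, among genes of 2 to 5 TPM, and 49.2% for Tfap2b, among genes of 50 to 100 TPM. These shares describe the 2 libraries and are not tests.

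Beside them, markers of several other tissues were called by the edgeR exact test with Benjamini-Hochberg adjustment, which compares these 2 libraries with a spread taken from them. All 6 skeletal muscle markers were higher in replicate 2, and Sox10 of the neural crest list fell from 15.4 to 9.60 TPM (edgeR exact test, adjusted p = 0.0454). Epcam of the surface ectoderm list fell from 33.0 to 16.4 TPM (edgeR exact test, adjusted p = 6.7e-05), the only 1 of the 9 called. Krt18 (25.2 to 16.5 TPM) and Krt8 (25.1 to 16.0 TPM) also fell, while Krt15 went from 8.56 to 14.0 TPM and Krt5 from 11.6 to 13.4 TPM. By the exact binomial test, 4 of the 9 were lower and 2 higher in replicate 2. Of the pharyngeal arch list, Dlx5 was higher and Alx1 lower in replicate 2. Tfap2a and Tfap2b, used in these tissues, were within 0.07 of 0 on the log2 scale, with this scaling. The part of these tissues in the level of either gene was not tested. Scaling by the spike-ins shifts the median of all genes to -0.37, and Phox2a and Tfap2a then turn lower in replicate 2.

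**Figure D3:**
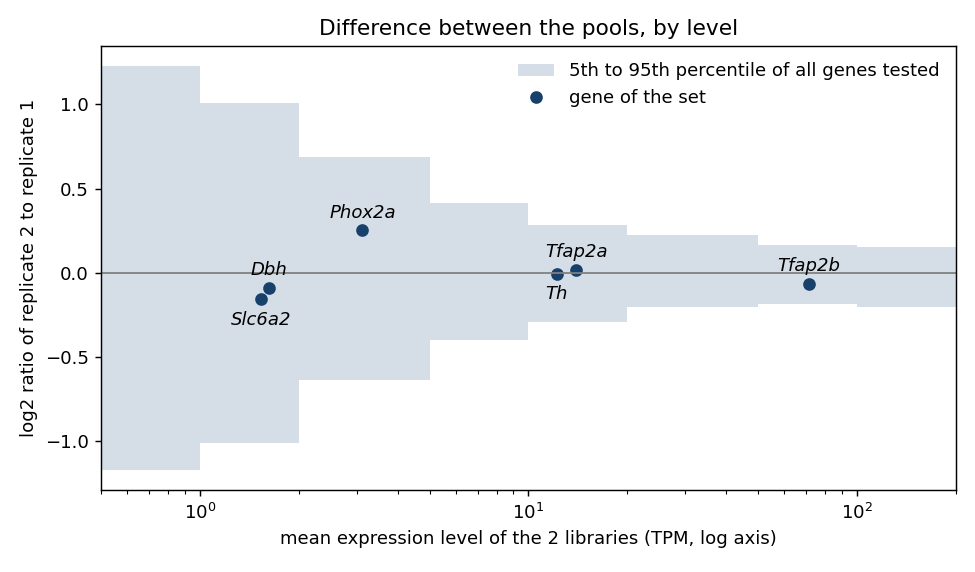
Log2 ratio of replicate 2 to replicate 1 against mean level (TPM, log axis) for the 6 genes tested, with grey bands from the 5th to the 95th percentile of all genes tested in each class of level. All 6 points lie inside the bands, from Slc6a2 at -0.16 to Phox2a at 0.25.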

How the data were processed

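The authors deposited 1 gene table and 1 transcript table for each library on mm10, with GENCODE M4 named in the notes beside the files; neither aligner nor quantifier is given in the sources used here. Per the labels' protocols, RNA over 200 nt was extracted by the mirVana method and libraries started from 10 ng. Per the file headers, the deposited values are expected counts (estimated fragments, not whole), TPM, FPKM and, for transcripts, the percent of the gene's expression. A deposited posterior mean TPM and FPKM served as alternatives. Names and coordinates came from GENCODE M21, matched on the identifier without its version; the tables hold 2 Tfap2a transcripts and M21 holds 9. Numbered entries that name no gene held 0.000107% and 0.000114% of the expected counts and were left out.

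Expected counts were rounded, genes with 10 or more counts in all were scaled by TMM (edgeR 4.0.16, R 4.3.3), and the exact binomial and edgeR exact tests were run. DESeq2 1.42.0 size factors, library totals, spike-in totals and no filter were alternatives. Detection meant at least 1 TPM in each library. Named beside the 7 genes are, from each of 21 lists, the 3 highest genes, the lowest, and those called by edgeR; some are given as counts or sums only, and some are not reported here. Slc18a2, Tfap2c, Tfap2e, Gata4, Myh6, Krt5 and Krt15, outside this rule, were chosen after their values were seen. The members and lists were chosen with earlier results of these data known.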

Additional observations from a re-analysis of the deposited data

How the results depend on the processing

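The number of the 7 genes detected was 6 at thresholds of 0.5 TPM, without the spike-ins and without replicate 1 or replicate 2 (lowest 6, highest 6), and 4 at 2 TPM or by FPKM. With TPM rescaled without the spike-ins, mean levels were higher, at 13.5 TPM for Th, 1.70 for Slc6a2, 15.5 for Tfap2a and 78.9 TPM for Tfap2b. The number called between libraries was 0 with the binomial test, edgeR, DESeq2 size factors, library totals and no filter, and 4 with spike-in totals, under which 13010 of all genes were called against 3921. With spike-in totals the log2 ratio of Phox2a turned to -0.12 and that of Tfap2a to -0.35, while Th was at -0.37, Slc6a2 at -0.53 and Tfap2b at -0.43; the median of all genes moved to -0.37 as well, by construction of the scaling. The edgeR exact test called 301 genes. With protein-coding transcripts only, an alternative chosen after seeing the data, Dbh over Slc6a2 changed from 0.07 to -0.18 on the log2 scale, through the 1 fragment on Dbh-202. No paired analysis was possible because the 2 libraries form 1 group. Depth limits Hand2, at 0 and 2 counts, and gives Dbh, Phox2a and Slc6a2 wide intervals. PCR copies cannot be told from separate molecules here, so intervals cover counting error only.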
